A study of Homo sapiens with 4 samples.

Results

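In K562-U2AF1 S34F cells, 10 genes of the smooth-muscle type contractile apparatus were followed: ACTA2, TAGLN, TAGLN2, MYL9, TPM1, TPM2, TPM4, CNN1, CNN2 and CALD1. They were chosen by symbol, and for each symbol the entry with the highest mean count was to be taken. Each of the 10 symbols stood in 1 of the 64873 entries of the deposited table, and all 10 were among the 26167 entries that passed the filter on low counts. K562 is an established human erythroleukemia line, and in all 4 samples it overexpressed the S34F mutant of the splicing factor U2AF1. Of these, 2 received the solvent DMSO, and 2 received SF1–8, a compound directed at the UHM domain of U2AF1, at 30 μM for 48 h. The comparison asks whether these genes differed between SF1–8 and DMSO, and in what order the 4 libraries stood. The labels do not say whether the engineered cells were 1 clone, nor whether the libraries of a group came from separate cultures, so the p-values measure only the spread between these libraries, which may be technical.

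Smooth muscle contracts when myosin pulls on actin filaments after its regulatory light chain is phosphorylated. ACTA2 encodes the smooth muscle actin and MYL9 a regulatory light chain. Transgelin (TAGLN), calponin (CNN1), caldesmon (CALD1) and the tropomyosins lie along the actin filament and stabilize it or regulate its meeting with myosin. Fibroblasts that turn into myofibroblasts also make ACTA2 and TAGLN. TAGLN2, TPM4 and CNN2 are paralogs used in many non-muscle cells, blood cells included. Many of these genes are targets of serum response factor (SRF), which binds a short DNA element named the CArG box together with the cofactors MRTFA, MRTFB or myocardin. In K562 cells, which are blood cells in suspension, the muscle forms are not characteristic genes.

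The estimated counts summed to between 45522905 and 67554610 per library, with DMSO 1 the smallest. The counts are whole numbers whose commonest value above 0 is 4 in each library, so a count need not stand for a single read, and no counting error was computed. Levels are given as FPKM, which is scaled by the authors for gene length and depth, and differences come from edgeR's quasi-likelihood fit to the counts. The label K562 was checked against erythroid markers, of which GATA1 stood between 75.9 and 79.1 FPKM. Among genes that define smooth muscle, MYOCD (myocardin) and ACTG2 had a count of 0 in all 4 libraries, and MYH11, the smooth muscle myosin heavy chain, lay between 0.0845 and 0.115 FPKM. Other genes of that marker list were present at low levels, with DES (desmin) between 2.12 and 2.54 FPKM, SMTN (smoothelin) between 1.01 and 1.30 and CNN1 between 0.521 and 0.655. The entry of SMTN also names AC005005 and RN7SL633P, so its level need not be that of SMTN alone. The 10 genes are called contractile genes by their known products.

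In 6 of the 10 genes, each SF1–8 library had a lower level than each DMSO library, against 18.1% of all entries tested. The 6 were ACTA2, CALD1, MYL9, TPM2, TAGLN and TPM1. Their log2 fold changes (SF1–8 over DMSO) ran from -2.92 for CALD1 to -0.64 for TPM1. TPM4 alone was higher in both SF1–8 libraries (17.3% of all entries), with a log2 fold change of 0.44. TAGLN2, CNN1 and CNN2 overlapped between the groups. At an adjusted p under 0.05 in the edgeR quasi-likelihood test, 0 of the 10 were called, against 0.042% of all entries tested. At an unadjusted p under 0.05, 3 of 10 were called against 4.33% of all entries. These were MYL9 and TPM2, lower with SF1–8 (2.54% of all entries), and TPM4, higher with SF1–8 (1.78%). A level at least 2-fold lower with SF1–8 was fitted for 4 of the 10 (ACTA2, MYL9, TPM2 and CALD1), against 7.71% of all entries. DESeq2 put 0 of the 10 past an adjusted p of 0.05 and 5 past an unadjusted one, the latter against 3.5% of all entries in that fit. With 2 libraries against 2, the smallest two-sided p of an exact permutation test is 0.333, so the call on any 1 gene leans on a spread estimated over all genes.

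**Figure D1:**
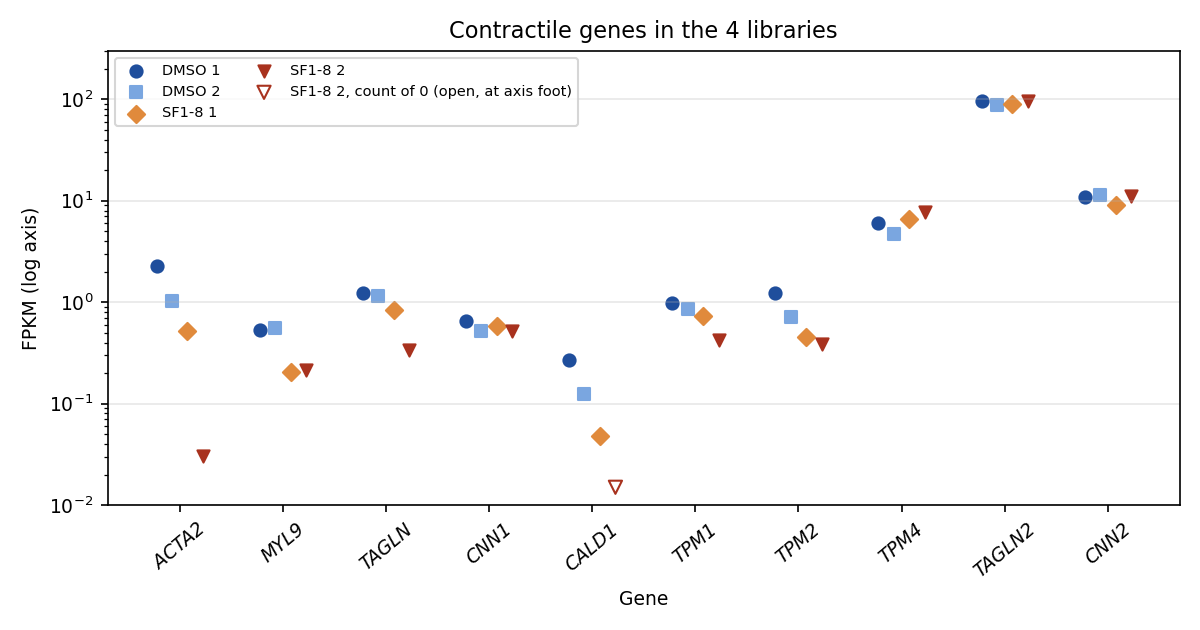
FPKM of the 10 contractile genes (x axis) on a log axis, 1 point for each of the 4 libraries; the open triangle marks the count of 0 of CALD1 in SF1–8 2. ACTA2 and CALD1 spread most, with ACTA2 from 2.26 down to 0.0302, whereas TAGLN2 stays between 87.1 and 95.5.

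ACTA2, the smooth muscle alpha actin, has its entry at chr10:88935074-88991339 on the minus strand of hg38. Its FPKM was 2.26 in DMSO 1 and 1.03 in DMSO 2, against 0.525 in SF1–8 1 and 0.0302 in SF1–8 2. The 4 libraries thus stood in descending order from DMSO 1 to SF1–8 2, and the groups did not overlap. DMSO libraries averaged 1.64 ± 0.869 FPKM (SD, n = 2), and SF1–8 libraries averaged 0.278 ± 0.350 (SD, n = 2). On the log2 scale the difference was -2.50 with an SE of 1.10 (edgeR quasi-likelihood, adjusted p = 0.970). The spread within a group was wide: counts scaled to the normalized library total (CPM) were 2.08 times higher in DMSO 1 than in DMSO 2 and 16.1 times higher in SF1–8 1 than in SF1–8 2. SF1–8 2 held a count of 8 for the entry, and without this library the log2 fold change was -1.59, whereas without SF1–8 1 it was -5.57. The entry overlaps AL157394 on the same strand, with counts of 0 and 9 in the DMSO libraries and 12 and 8 in the SF1–8 libraries, so in SF1–8 2 it held as many counts as ACTA2. On the other strand it overlaps FAS, STAMBPL1 and ACTA2-AS1, which had counts of at most 9 in any library.

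Before a RefSeq start site of ACTA2, inside its entry, stands a pair of sequences that resemble a CArG box, and the stretch is shown because SRF is known to act on this gene there. A CArG box was searched as CC, then 6 bases that are each A or T, then GG, a form that reads the same on both strands. A CArG-like site was allowed 1 other base among the 6. In RefSeq windows on GRCh38.p14, from 250 bases before to 50 bases after each start site, 1.29% of 35116 windows held a CArG box and 8.13% a CArG box or CArG-like site. Of the 10 genes, 8 had windows, 17 in all, and TAGLN and MYL9 were not in the table. Of these windows, 2 held a CArG box and 4 a CArG box or CArG-like site. The boxes were in windows of CNN2 and TPM4, and the CArG-like sites were in those of ACTA2 and CALD1. For comparison with ACTA2, the same stretch of CNN2 and TPM4 is given, from 200 to 51 bases before the start site, with the sites in capitals. The stretches lie at chr10:88952824-88952973 (minus strand), chr19:1026408-1026557 and chr19:16067338-16067487 (plus strand), and overlap no exon in GENCODE version 29.
ACTA2: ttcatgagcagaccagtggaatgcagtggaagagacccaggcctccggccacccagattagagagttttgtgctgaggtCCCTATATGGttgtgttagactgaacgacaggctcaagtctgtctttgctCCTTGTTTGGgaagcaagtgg
CNN2: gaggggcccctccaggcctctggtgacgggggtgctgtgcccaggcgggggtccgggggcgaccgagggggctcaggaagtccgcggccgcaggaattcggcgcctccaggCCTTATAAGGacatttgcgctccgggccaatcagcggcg
TPM4: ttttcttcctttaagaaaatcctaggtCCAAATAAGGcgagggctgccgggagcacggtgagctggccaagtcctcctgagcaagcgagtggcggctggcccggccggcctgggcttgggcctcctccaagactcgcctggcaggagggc

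The sites of ACTA2 end 112 and 62 bases before its start site, that of CNN2 ends 80 bases before it and that of TPM4 ends 164 bases before it. Thus the full CArG boxes stood beside a gene that overlapped between the groups and a gene that was higher with SF1–8. The CArG-like pair stood beside a gene with lower levels. CALD1, also lower, had a CArG-like site that ends 17 bases before a start site outside its entry. Of the other lower genes, TPM1 and TPM2 had no site in their windows, and TAGLN and MYL9 had no window. These matches are a description of the letters, and binding was not measured.

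MYL9 encodes a regulatory light chain of smooth and non-muscle myosin, and its entry lies at chr20:36541497-36551447. Its FPKM was 0.534 and 0.559 in DMSO 1 and DMSO 2, and 0.204 and 0.213 in SF1–8 1 and SF1–8 2. Here the libraries of a group lay close together and the groups were apart, with both values higher in library 2 of each group. DMSO libraries averaged 0.547 ± 0.0176 FPKM (SD, n = 2), against 0.209 ± 0.00609 (SD, n = 2) for the SF1–8 libraries. The log2 fold change of MYL9, -1.35 with an SE of 0.295, had the smallest p of the 10 genes (edgeR quasi-likelihood, adjusted p = 0.897). It stayed between -1.42 and -1.27 when any 1 library was left out. MYL9 was thus the only 1 of the 6 lower genes that did not stand in the order DMSO 1, DMSO 2, SF1–8 1, SF1–8 2. Its entry overlaps DLGAP4-AS1 on the other strand, which had 0.178 and 0.330 FPKM with DMSO and 0.223 and 0.208 with SF1–8. Whether strand was used in counting is not given in the sources used here, so reads of the 2 genes may not be separated where they overlap.

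TAGLN encodes transgelin, an actin cross-linking protein of smooth muscle. Its entry at chr11:117199370-117207464 also names AP000892 and runs beyond the end of TAGLN in GENCODE version 29, at 117204782. The entry had 1.23 and 1.15 FPKM in DMSO 1 and DMSO 2, 0.828 in SF1–8 1 and 0.336 in SF1–8 2. The DMSO libraries nearly coincided, and SF1–8 2 stood apart from SF1–8 1 by a factor of 2.47 in CPM. Its log2 fold change was -0.99 with an SE of 0.424 (edgeR quasi-likelihood, adjusted p = 0.970). It was -0.48 without SF1–8 2 and -1.79 without SF1–8 1. PCSK7, which overlaps the entry on the other strand, had a log2 fold change of -0.11.

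CALD1 (caldesmon), which binds actin and tropomyosin, had the lowest level of the 10 genes, with its entry at chr7:134744252-134970729. Its FPKM was 0.267 in DMSO 1, 0.124 in DMSO 2 and 0.0478 in SF1–8 1, and its count in SF1–8 2 was 0. The descending order of ACTA2 was thus seen again, including the step of 1.99 in CPM between the DMSO libraries. The fitted value of -2.92 on the log2 scale, with an SE of 1.32 (edgeR quasi-likelihood, adjusted p = 0.970), was -1.93 without SF1–8 2, the library with no counts. Without SF1–8 1 the treated group is at a count of 0, so no fold is given, and the value of CALD1 depends on which SF1–8 library is kept.

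CNN1 (calponin 1), a marker of mature smooth muscle, did not share this pattern. At chr19:11538767-11550322, its entry had 0.655 and 0.521 FPKM with DMSO and 0.576 and 0.522 with SF1–8. The groups overlapped, and the log2 fold change of -0.065 with an SE of 0.258 (edgeR quasi-likelihood, adjusted p = 0.990) was smaller than its error and had the opposite sign with quantile normalization, without DMSO 1 and without SF1–8 2. The level of CNN1 was comparable to that of MYL9 with DMSO on the FPKM scale.

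The tropomyosins form a rod along the actin filament, and TPM1 and TPM2 give the main muscle forms. TPM2, at chr9:35681992-35690056, had 1.24 and 0.709 FPKM with DMSO and 0.453 and 0.390 with SF1–8. The libraries stood in the same descending order, with a step of 1.64 in CPM from DMSO 1 to DMSO 2. TPM2 had a log2 fold change of -1.16 with an SE of 0.322 (edgeR quasi-likelihood, adjusted p = 0.970), and of -0.77 without DMSO 1. TPM1, at chr15:63042632-63071915, had 0.986 and 0.851 FPKM with DMSO, 0.735 in SF1–8 1 and 0.421 in SF1–8 2. The groups did not overlap, and SF1–8 2 was lowest. For TPM1 the log2 fold change was -0.64 with an SE of 0.285 (edgeR quasi-likelihood, adjusted p = 0.970). Leaving out SF1–8 2 gave -0.29, whereas leaving out SF1–8 1 gave -1.10. TPM1 has 34 transcripts in GENCODE version 29, 19 of them coding, and the entry adds them up.

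TPM4, the tropomyosin of platelets and other non-muscle cells, went the other way. Its entry at chr19:16067021-16103002 had 6.04 and 4.70 FPKM with DMSO and 6.61 and 7.70 with SF1–8. Each SF1–8 library was above each DMSO library, an arrangement seen in 17.3% of all entries tested. DMSO libraries averaged 5.37 ± 0.947 FPKM (SD, n = 2), against 7.15 ± 0.767 (SD, n = 2) for the SF1–8 libraries. On the log2 scale TPM4 was higher by 0.44 with an SE of 0.130 (edgeR quasi-likelihood, adjusted p = 0.970). This value was positive in all 15 alternatives, from 0.27 with FPKM rescaled to TPM to 0.59 without DMSO 1. AC008894, which overlaps this entry on the other strand, had a log2 fold change of -0.53.

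TAGLN2 (transgelin 2), an actin-binding protein abundant in blood cells, had the highest level of the 10 genes and differed least. At chr1:159918107-159925507, its FPKM was 95.0 and 87.1 with DMSO and 89.1 and 95.5 with SF1–8. A log2 fold change of 0.048 with an SE of 0.0690 (edgeR quasi-likelihood, adjusted p = 0.970) lay within its error and turned negative with quantile normalization and with FPKM rescaled to TPM. CNN2, a calponin of non-muscle cells at chr19:1026586-1039068, had 10.96 and 11.3 FPKM with DMSO and 9.05 and 11.1 with SF1–8. For CNN2 the log2 fold change of -0.12 with an SE of 0.127 (edgeR quasi-likelihood, adjusted p = 0.970) also lay within its error, and it was 0.014 without SF1–8 1.

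**Figure D2:**
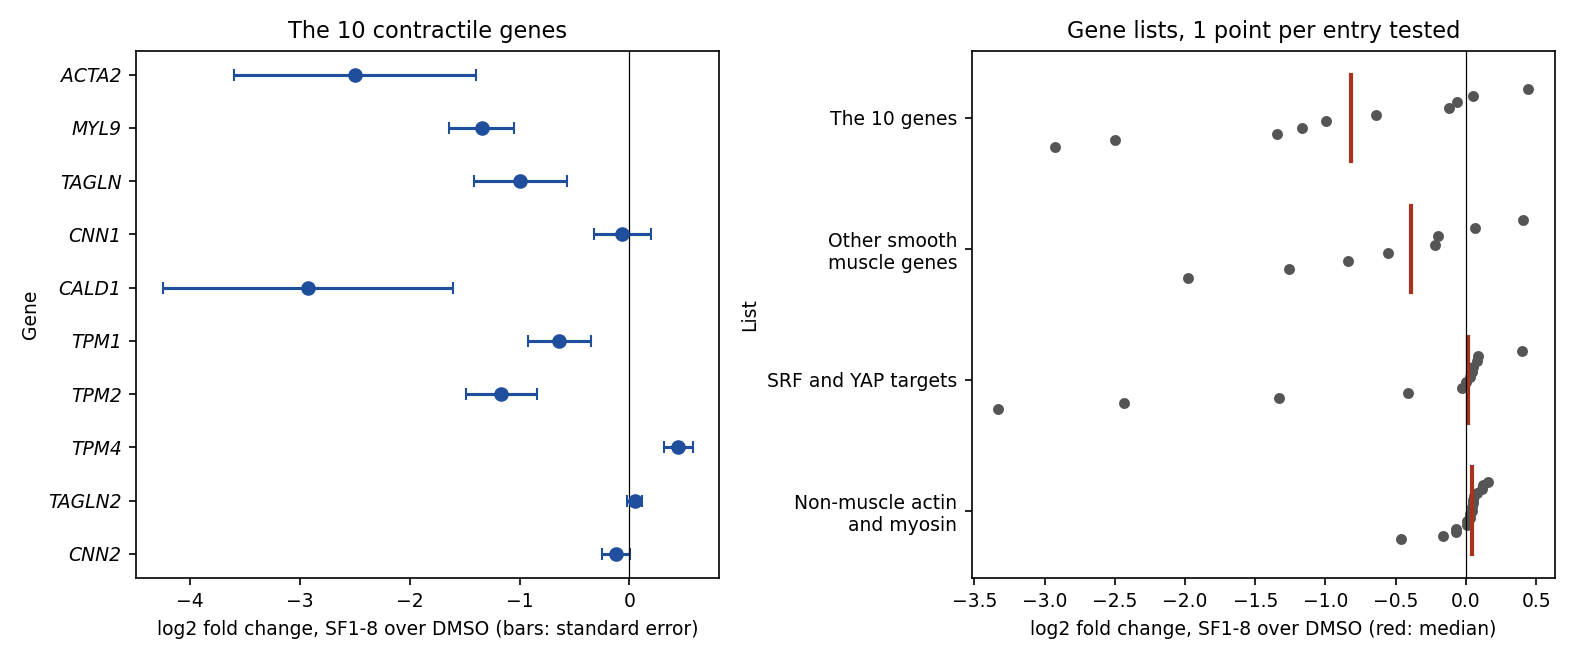
Left, log2 fold change of SF1–8 over DMSO for each of the 10 genes, with bars for the standard error of the edgeR fit; right, the same quantity for each entry tested in 4 gene lists, the 10 genes included, with the median in red. CALD1 (-2.92) and ACTA2 (-2.50) have the widest errors, and the medians of the SRF and YAP target list (0.013) and the non-muscle list (0.041) lie near 0. The latter lists share ACTN1, VCL, FLNA and MYH9.

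Counted over the 10 genes, 8 had a log2 fold change below 0, as did 51.6% of all entries, and the median was -0.82, beside a median of -0.011 over all entries tested. The 6 genes with each SF1–8 library below each DMSO library stand against 18.1% of all entries. In 5 of the 10 (ACTA2, TAGLN, TPM1, TPM2 and CALD1), the order was DMSO 1, DMSO 2, SF1–8 1, SF1–8 2 from highest to lowest, as in 5.53% of all entries. In CPM the DMSO libraries of TAGLN were nearly tied, at a ratio of 1.01, so the order of that gene rests on the other steps. The steps were unequal. For ACTA2 they were 2.08 between the DMSO libraries, 1.96 from DMSO 2 to SF1–8 1 and 16.1 between the SF1–8 libraries, all in CPM. For TPM2 they were 1.64, 1.57 and 1.19. For TAGLN and TPM1 the last step was the largest, at 2.47 and 1.75. Replicate numbers carry no order of their own, so the arrangement is only a description of these 4 libraries.

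**Figure D3:**
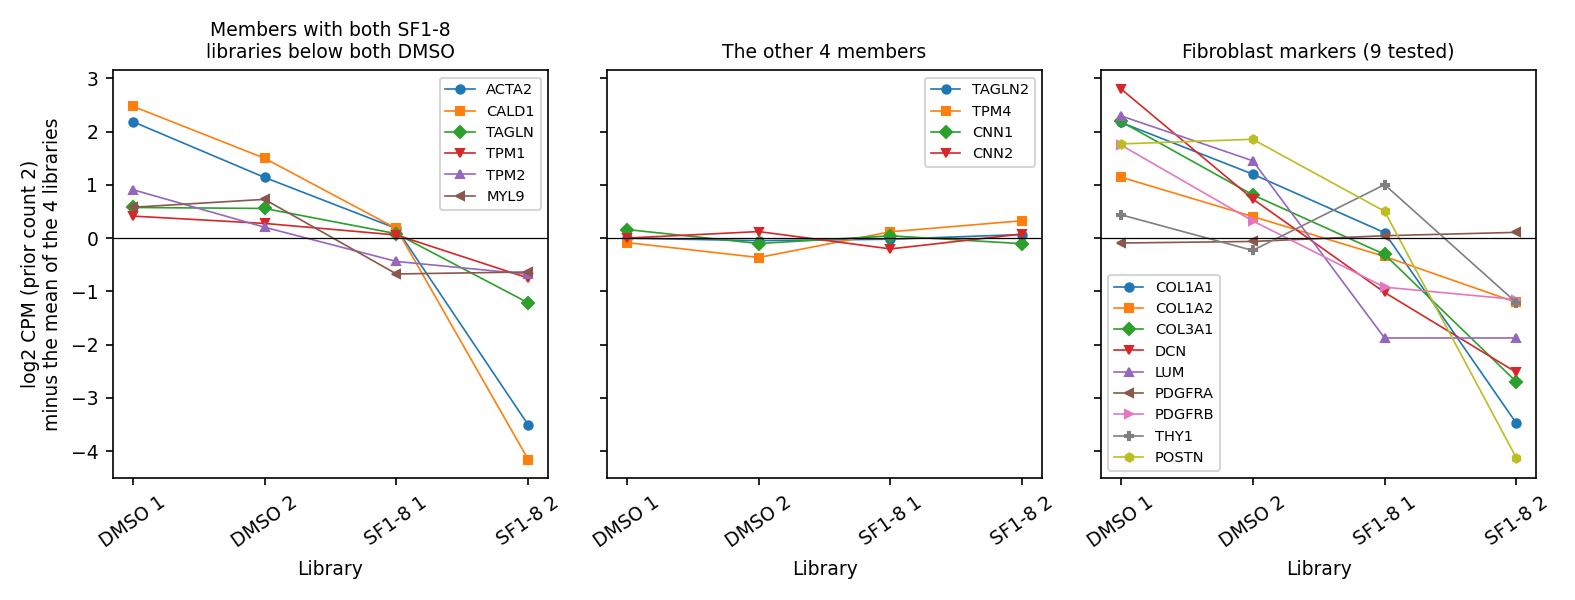
log2 CPM (prior count 2) minus the mean of the 4 libraries, for the 6 lower genes (left), the other 4 genes (middle) and the 9 fibroblast markers tested (right); thin lines only link the points of 1 gene. ACTA2 and CALD1 descend across the libraries as do COL1A1 and COL3A1. TAGLN2, CNN1 and CNN2 stay near 0, and TPM4 is higher in both SF1–8 libraries.

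Markers of other cells that make these contractile genes were read in the same libraries. Of 10 fibroblast markers, 9 were tested, and 7 had a log2 fold change below 0, against 51.6% of all entries tested. Of these, 5 had an unadjusted p under 0.05 in the edgeR quasi-likelihood test, against 2.54% of all entries (lower with SF1–8). After adjustment 0 passed, against 0.042% of all entries. Both SF1–8 libraries were below both DMSO libraries in 7 of the 9 tested, against 18.1% of all entries. The descending order of all 4 libraries held in 5 of the 9, against 5.53% of all entries. The summed FPKM of the 10 markers was 13.6 and 8.23 with DMSO and 6.06 and 4.26 with SF1–8. Much of the SF1–8 sum was the entry of PDGFRA, at 3.48 and 3.67 FPKM, against 3.33 and 3.22 with DMSO. This entry also names FIP1L1 and AC058822, so its level cannot be credited to PDGFRA alone. LUM (lumican), a defining gene of fibroblasts, had 0.170 and 0.0870 FPKM with DMSO and a count of 0 in both SF1–8 libraries. DCN (decorin) and POSTN had a count of 0 in SF1–8 2, and FAP had counts in DMSO 1 only. The 2 tested markers with a log2 fold change above 0 were PDGFRA, read from that shared entry, and THY1, each at 0.15. THY1 had counts of 55 and 45 with DMSO, 113 in SF1–8 1 and 22 in SF1–8 2. Of 6 endothelial markers, VWF, CDH5 and KDR had a count of 0 in all 4 libraries and PECAM1 was the only 1 tested. The summed level of the 8 smooth muscle markers ran from 4.02 to 4.79 FPKM with DMSO and from 4.05 to 4.30 with SF1–8, with ACTG2 and MYOCD at 0. The part of the fibroblast markers in the lower values of the contractile genes was not tested. In bulk RNA, fewer cells of a type and less RNA per cell cannot be told apart.

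The entries whose profile over the 4 libraries was nearest to that of ACTA2 were searched among 12484 entries that name 1 gene and have a mean FPKM of at least 1. The nearest was COL1A1, a type I collagen chain and the main structural product of fibroblasts, at a root mean square distance of 0.0527 on the log2 CPM scale. The next among the entries searched were ZNF443 at 0.630 and AC104447 at 0.677. ACTA2 itself lies under the FPKM floor of the search, as do CALD1, COL3A1 and POSTN, so the ranking does not cover these genes. CALD1 and COL3A1 had the same descending order of the libraries as ACTA2, and POSTN was lower in both SF1–8 libraries. The ranking therefore does not show that COL1A1 alone resembled ACTA2. COL1A1 had 5.39 and 2.60 FPKM with DMSO and 1.21 and 0.0982 with SF1–8. Set over COL1A1, ACTA2 had FPKM ratios of 0.418 and 0.394 in the DMSO libraries, against 0.433 and 0.308 in the SF1–8 libraries. Since COL1A1 was picked for its likeness to ACTA2, a steady ratio follows from that choice. For TAGLN, MHENCR, MIR3689B and BRCC3P1 were nearest, at 0.0318, 0.0412 and 0.0666, and 519 entries lay within 0.5. TAGLN varied less over the libraries than ACTA2, so a fixed distance does not show which profile was the more particular. The likeness rests on 4 points and is a description.

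TAGLN, TPM1, TPM2 and CNN1 were then each set against a broad paralog within a library, which removes depth. No such ratio was taken for ACTA2, MYL9 and CALD1. The ratio of TPM4 to TPM2 in FPKM was 4.89 and 6.63 with DMSO and 14.6 and 19.7 with SF1–8. The means differed 2.98-fold and the groups did not overlap (two-sided exact permutation p = 0.333, the smallest that 4 libraries allow). The ratio of TPM4 to TPM1 was 6.12 and 5.53 with DMSO and 8.996 and 18.3 with SF1–8, and that of TAGLN2 to TAGLN was 77.5 and 75.8 against 108 and 284. For both, the exact permutation p was again 0.333. The ratio of CNN2 to CNN1 was 16.7 and 21.7 with DMSO and 15.7 and 21.2 with SF1–8, and here the groups overlapped (exact permutation p = 0.667). So in 3 of the 4 ratios each SF1–8 library was above each DMSO library, and in the calponin ratio this was not so. The tropomyosin ratios share TPM4 and are not independent. With TPM4 higher and TPM1 and TPM2 lower in both SF1–8 libraries, their separation follows from the levels given above. The ratios restate those levels and are no separate evidence. Among the 4 tropomyosin genes, TPM2 made up 8.71% and 4.66% of the summed FPKM with DMSO and 3.53% and 2.42% with SF1–8. TPM1 and TPM2 together were therefore a small share beside TPM4, at 30.9% to 51.5%, and TPM3, whose entry also names RN7SL431P.

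**Figure D4:**
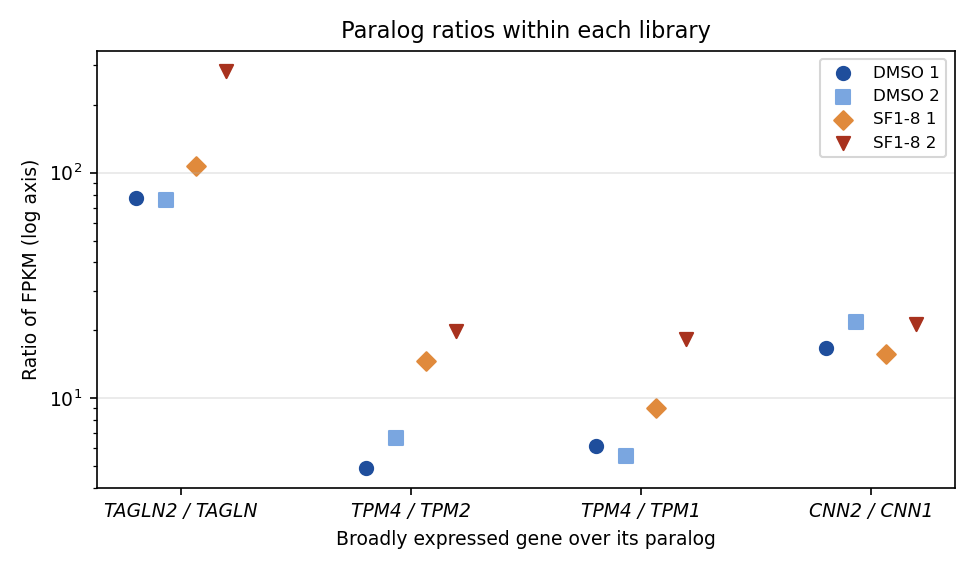
Ratio of FPKM of the broadly expressed gene to its paralog within each of the 4 libraries, on a log axis. TPM4 over TPM2 moves from 4.89 and 6.63 with DMSO to 14.6 and 19.7 with SF1–8, and CNN2 over CNN1 overlaps between the groups.

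Further genes of smooth muscle were read from a list. Of 11 genes, 8 were tested, and ACTG2, MYOCD and TAGLN3 had a count of 0 in all libraries. Of the 8 tested, 6 had a log2 fold change below 0 (51.6% of all entries), with a median of -0.39. At an unadjusted p of 0.05 in the edgeR quasi-likelihood test, 0 passed, against 4.33% of all entries. The smallest p belonged to LMOD1 (leiomodin, an actin nucleator), SMTN (smoothelin) and MYLK (the kinase of the regulatory light chain), with log2 fold changes of -0.84, -0.20 and -0.56. The value of SMTN is that of an entry that names other genes too. For MYH11 the log2 fold change was 0.41 with an SE of 0.236, so the myosin heavy chain of smooth muscle did not share the direction of ACTA2.

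Among 12 genes that SRF or YAP drive in many cell types, 3 had an unadjusted p under 0.05, against 4.33% of all entries tested. Each was lower with SF1–8 (2.54% of all entries): ANKRD1, THBS1 and CCN2. Over all entries their adjusted p was 0.970 (edgeR quasi-likelihood). ANKRD1, a nuclear ankyrin protein of stretched muscle, had 0.789 and 0.386 FPKM with DMSO and 0.122 and 0.0780 with SF1–8. THBS1, the matrix protein thrombospondin, had 1.17 and 0.783 FPKM with DMSO and 0.481 and 0.274 with SF1–8. CCN2, a matrix-linked growth factor, had 1.60 and 0.806 FPKM with DMSO, 0.230 in SF1–8 1 and a count of 0 in SF1–8 2. All 3 had the descending order of the libraries (5.53% of all entries), and CCN1, the near relative of CCN2, had a log2 fold change of 0.40. SRF itself, also in the list, lay between 17.4 and 17.8 FPKM with DMSO and reached 18.7 with SF1–8. The median of the list was 0.013, and the 3 stood apart from its other genes in value. They were named for their small p, so this follows in part from that choice. ACTN1, VCL, FLNA and MYH9 of this list also stand in the non-muscle list.

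The non-muscle actin and myosin genes, which make up the contractile machinery of most cells, were read last, and ACTB, the cytoplasmic beta actin, stood between 252 and 341 FPKM. Of 17 genes, 13 had a log2 fold change above 0, against 48.4% of all entries, and the median was 0.041. PFN1 (profilin, which feeds actin monomers to filaments) was the only gene of the list with an unadjusted p under 0.05, with 119 and 148 FPKM with DMSO and 86.3 and 105 with SF1–8 and -0.47 on the log2 scale (edgeR quasi-likelihood, adjusted p = 0.970). MYL12A and MYL12B, regulatory light chains of non-muscle myosin, had log2 fold changes of 0.16 and 0.12.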

How the data were processed

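RNA-seq was done on 4 libraries, and the authors deposited 1 table that gives each entry its FPKM and its estimated count in every library. The processing notes name cutadapt, FastQC, Bowtie2, HISAT2 and StringTie and build hg38, and their settings and the counter are not given in the sources used here. FPKM values are scaled by the authors for length and depth, and their 0.0001 stands for 0. The deposited estimated counts were used as they stand. Entries naming no gene (2095, with 0.37% of the counts) were left out.

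Groups came from the treatment label. Counts were normalized by TMM, filtered by filterByExpr and fitted by the quasi-likelihood test of edgeR 4.0.16, with Benjamini-Hochberg adjustment over 26167 entries. The steps were tested on simulated counts. Alternatives used DESeq2 1.42.0 and limma 3.58.1 (R 4.3.3), other scalings, filters and pseudocounts, and left out each library. Named genes are the 10 genes, the 3 smallest p per list and, among the entries searched, the 3 profiles nearest to ACTA2 and TAGLN. Other genes with values, such as MYH11, SRF, CCN1, LUM and PDGFRA, were picked from the lists after their values were seen. The 10 genes and the lists were chosen with earlier results of these data known. Promoter windows come from RefSeq (GRCh38.p14) and gene models from GENCODE version 29. Transcripts, proteins and binding were not analysed here. One further gene list is not reported here.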

Additional observations from a re-analysis of the deposited data

How the results depend on the processing

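The number of the 10 genes past an adjusted p of 0.05 was 0 in all 15 alternatives, and the number with both SF1–8 libraries below both DMSO libraries, 6 in the report, lay between 5 (quantile normalization) and 7 (no TMM, and TPM) in the alternatives that keep all 4 libraries. The number past an unadjusted p of 0.05, 3 in the edgeR quasi-likelihood test, was 5 with DESeq2 (against 3.5% of all entries), 5 with counts divided by 4 (4.49%, chosen after seeing the data), 7 with no filter on low counts (3.91%), 1 with limma on log2(FPKM + 0.1) (5.82%), and 2 to 7 when 1 library was left out (4.14% to 7.66%), with 7 without SF1–8 1. Entries past an adjusted p of 0.05, 11 in all, numbered 150 with DESeq2, 31 with no filter, 1 with limma on log2(TPM + 1), 0 with the other 4 limma settings, and 0 to 20 when 1 library was left out. The cause was not tested.

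With the replicate number as a block, 0 entries passed and 7 of the 10 genes had an unadjusted p under 0.05, against 3.71% of all entries. In the labels, libraries of the same number share only that number. The correlation of their deviations was 0.016 over 26167 entries, which does not settle whether they were handled together. When a library was left out, the lone library of its group was assumed to vary like the others.

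ACTA2, TAGLN, MYL9, TPM1, TPM2, TPM4 and CALD1 kept their sign in all 15 alternatives, but not their size. On the log2(FPKM + 1) scale, where the pseudocount shrinks low values, ACTA2 was -1.03, TAGLN -0.48, MYL9 -0.36, TPM1 -0.29, TPM2 -0.46 and CALD1 -0.22. With quantile normalization as well, they were smaller still, at -0.17 for TPM1 and -0.20 for CALD1. TAGLN2 turned to -0.11 with TPM, which moved the median of all entries to -0.14, and to -0.039 with quantile normalization. CNN1 turned to 0.058 with quantile normalization. When 1 library was left out, CNN1 lay between -0.19 and 0.072, positive without DMSO 1 and without SF1–8 2 (0.0092), and CNN2 lay between -0.27 and 0.014, positive without SF1–8 1. Counts that need not be single reads give no limit of detection, so the low genes are limited by depth to an unknown degree.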

Other observations

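Genes of striated muscle were read as a further list. TNNT1, the slow skeletal troponin T, stood between 12.1 and 13.1 FPKM in the 4 libraries, and its log2 fold change was 0.022 with an SE of 0.115. ACTC1, the cardiac actin, lay between 0.132 and 0.225 FPKM. MYH2, TNNT2 and MYBPC3 had a count of 0 in all 4 libraries, while MYH1 had a count of 10 in DMSO 1 only and ACTA1 a count of 4 in DMSO 2 only. Among 5 platelet and megakaryocyte markers, PPBP, PF4 and GP9 had a count of 0 in all libraries, while GP1BA had 0.864 and 0.558 FPKM with DMSO and 0.976 and 0.981 with SF1–8.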
